A study of Homo sapiens with 9 samples.

Results

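Molecular chaperones are the proteins that bind other proteins while they fold, and 44 of their genes were followed here in the MEC1 cell line, an established line of chronic lymphocytic leukemia (CLL) cells. The 44 genes are heat shock proteins, their regulators and co-chaperones, and the subunits of the CCT chaperonin and of prefoldin, and they were chosen by gene symbol from the 59050 symbols of the count table. RNA was sequenced from 3 samples of cells kept in 2D, 3 samples of cells printed into a hydrogel scaffold and collected at day 7 (3D_7d) and 3 collected at day 14 (3D_14d). The scaffold was made with CELLINK Bioink, a mixture of sodium alginate and nanofibrillar cellulose that is hardened with CaCl2. No drug, gene deletion or heat treatment is named for any group, and the culture day of these 3 samples in 2D is not given. RNA of the scaffolds was isolated with TRIzol and DNase I before the column kit, and RNA of 2D with the kit alone. Extraction and culture in 3D can therefore not be told apart, whereas both time points in 3D were extracted in the same way.

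The samples held 54662799 to 85968686 counts. Levels are given as CPM, the counts of a gene per 1000000 counts after TMM scaling, and as CPM per kilobase of exon (RPKM) wherever genes are compared with each other. A gene was tested when at least 3 of the 9 samples had more than 1 CPM, which held for 13463 genes and for all 44 chaperone genes. The lowest count of any of the 44 genes in any sample was 532, for DNAJB4, and the highest was 173336, for HSPA8. Counts came from single reads of 100 bases, from libraries made with SMART-Seq v4 from 2 ng of RNA, and the handling of strand and of reads that fit several genes is not given. All 3 comparisons came from 1 edgeR model with adjustment over all tested genes, changes are given as log2 fold changes with their standard error (SE), and a gene is called higher or lower at an adjusted p of at most 0.05. The comparisons at day 7 and at day 14 use the same 3 samples in 2D, and the comparison of the time points uses the samples of both, so their values are set side by side and are not independent of each other. Nothing in the labels says that the 3 replicates of a group were separate cultures, so the p-values measure the spread between these samples. In bulk RNA, fewer cells of a type and less RNA per cell cannot be told apart. Short genes ran higher in replicate 1 of day 14 than in the other samples of that group, as given near the end, and counts of calls without it are given there.

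Chaperones of the HSP70 family bind short hydrophobic stretches of unfolded proteins in a cycle driven by ATP, which J-domain proteins start and nucleotide exchange factors end. HSP90 proteins act later on partly folded clients such as kinases, and the CCT chaperonin is a ring complex that folds actin and tubulin inside its cavity. Under heat or other stress to proteins, the transcription factor HSF1 binds heat shock elements in the promoters of many of these genes, while others are made at a steady level in growing cells.

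Markers of B cells were present in every sample. Of the 10 markers listed, 9 passed the filter, and CD5 was the exception at 0.67 CPM or less. Their summed level was 3463, 3475 and 3425 CPM in 2D, 4571, 4081 and 3905 CPM at day 7 and 5466, 5299 and 4740 CPM at day 14. Of 10 markers of T and NK cells 2 passed, GNLY and KLRD1, and the summed level rose from between 12.9 and 16.7 CPM in 2D to between 91.2 and 129 CPM at day 7 and between 214 and 414 CPM at day 14. GNLY made up most of this sum, which was between 1.40 and 7.26 CPM without it, and CD3D was at 0 in 7 of the 9 samples. None of 7 myeloid markers passed, LYZ and S100A8 were each at 0 in 8 samples, and the sum stayed at or below 1.18 CPM. Of 9 stromal, endothelial and epithelial markers 2 passed, COL1A1 and PECAM1. Their list summed to 19.8 to 24.5 CPM in 2D, 38.2 to 54.7 CPM at day 7 and 52.0 to 79.2 CPM at day 14. Without PECAM1 this sum was 7.22 to 8.71 CPM in 2D and 1.88 to 6.37 CPM in 3D. HBA1 was the single one of 5 erythroid markers to pass. The summed level of these 5 was 0.197 to 0.380 CPM in 2D, 1.83 to 2.39 CPM at day 7 and 3.02 to 5.71 CPM at day 14. No marker was at 0 in all samples. The part of these transcripts in the results for chaperone genes was not tested.

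The chaperone genes took a larger share of all counts at day 7 than in the other conditions. This share was 1.08%, 1.09% and 1.10% in the samples in 2D, 1.6%, 1.93% and 1.84% at day 7 and 0.985%, 1.01% and 0.997% at day 14. The 3 conditions did not overlap, with every sample at day 7 above every other sample and every sample at day 14 just below those in 2D. After TMM scaling, the share was 1.12%, 1.08% and 0.978% at day 14 and 1.02%, 1.01% and 0.984% in 2D, so that these conditions overlapped, while day 7 was still above both. Among the samples at day 7, replicate 1 was the lowest. Counts on mitochondrial genes moved the other way at day 7, with 1.64%, 1.62% and 1.44% against 2.30%, 2.81% and 2.83% in 2D, and were spread from 1.62% to 2.82% at day 14.

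**Figure D1:**
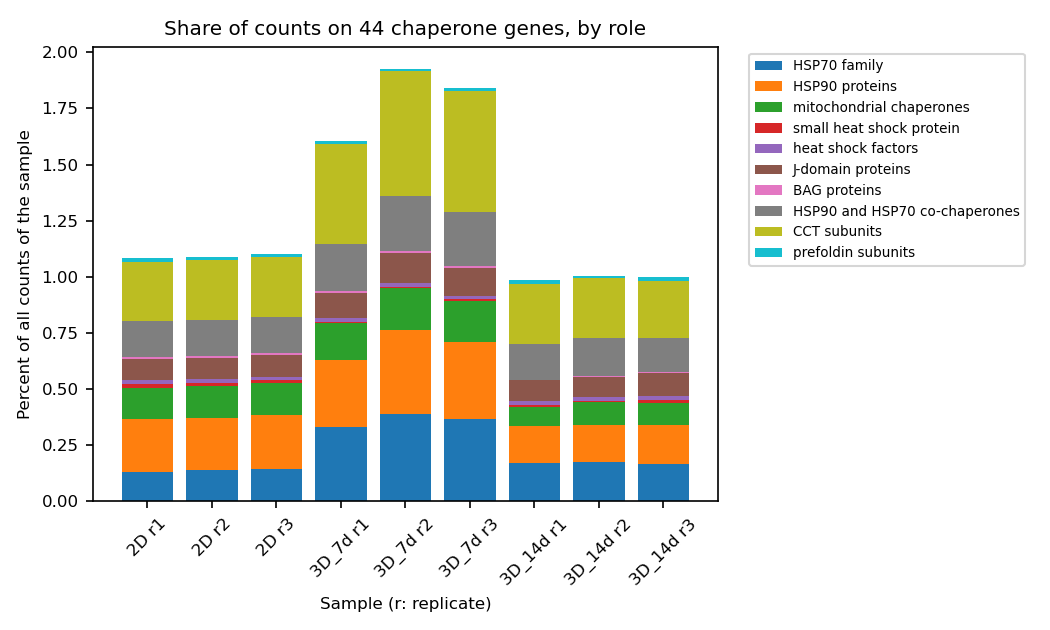
Share of each sample's counts that fell on the 44 chaperone genes, stacked by role, with the samples on the horizontal axis and percent of all counts on the vertical axis. The bars of the samples at day 7 reach 1.6% to 1.93%, those in 2D 1.08% to 1.10% and those at day 14 0.985% to 1.01%.

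At day 7, 26 of the 44 genes were higher than in 2D, where 22.2% of all tested genes were higher, and 4 were lower, where 21.2% of all tested genes were lower. The median log2 fold change was 0.64 over the 44 genes and -0.00 over all tested genes. The genes that rose included HSPA8, both HSP90 genes, 7 of the 8 CCT subunits and 6 of 8 co-chaperones. The 4 that fell were HSPA1A, HSPA1B, DNAJB1 and HSPB1. Of these 30 calls, 25 were also made in each of the 9 analyses that left out 1 sample, and the exceptions were DNAJA3, HSPB1, DNAJC7, BAG2 and STUB1.

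At day 14, 9 genes were higher than in 2D, against 19.0% of all tested genes, and 7 were lower, against 17.2%. These shares of the 44 genes lie close to those of all tested genes, and the medians were both 0.02 on the log2 scale. Between the time points, 25 of the 44 genes were lower at day 14 than at day 7, where 13.6% of all tested genes were lower, and 0 were higher, where 14.5% of all tested genes were higher. The Wald test of DESeq2 also gave 0, whereas without replicate 2 of day 14 edgeR called 3 genes higher, HSPB1, PFDN2 and PFDN4. The median log2 fold change between the time points was -0.62 for the chaperone genes and -0.00 for all tested genes. Scaling by total counts alone moved the median over all tested genes, by -0.16 at day 7 and -0.21 at day 14. With this scaling, 23 chaperone genes were higher and 6 lower at day 7, and 6 were higher and 14 lower at day 14. Of all tested genes, 16.0% were then higher and 26.6% lower at day 7, and 11.9% and 24.1% at day 14. Higher genes then made up 37.6% instead of 51.1% of all calls at day 7, and 33.1% instead of 52.5% at day 14.

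**Figure D2:**
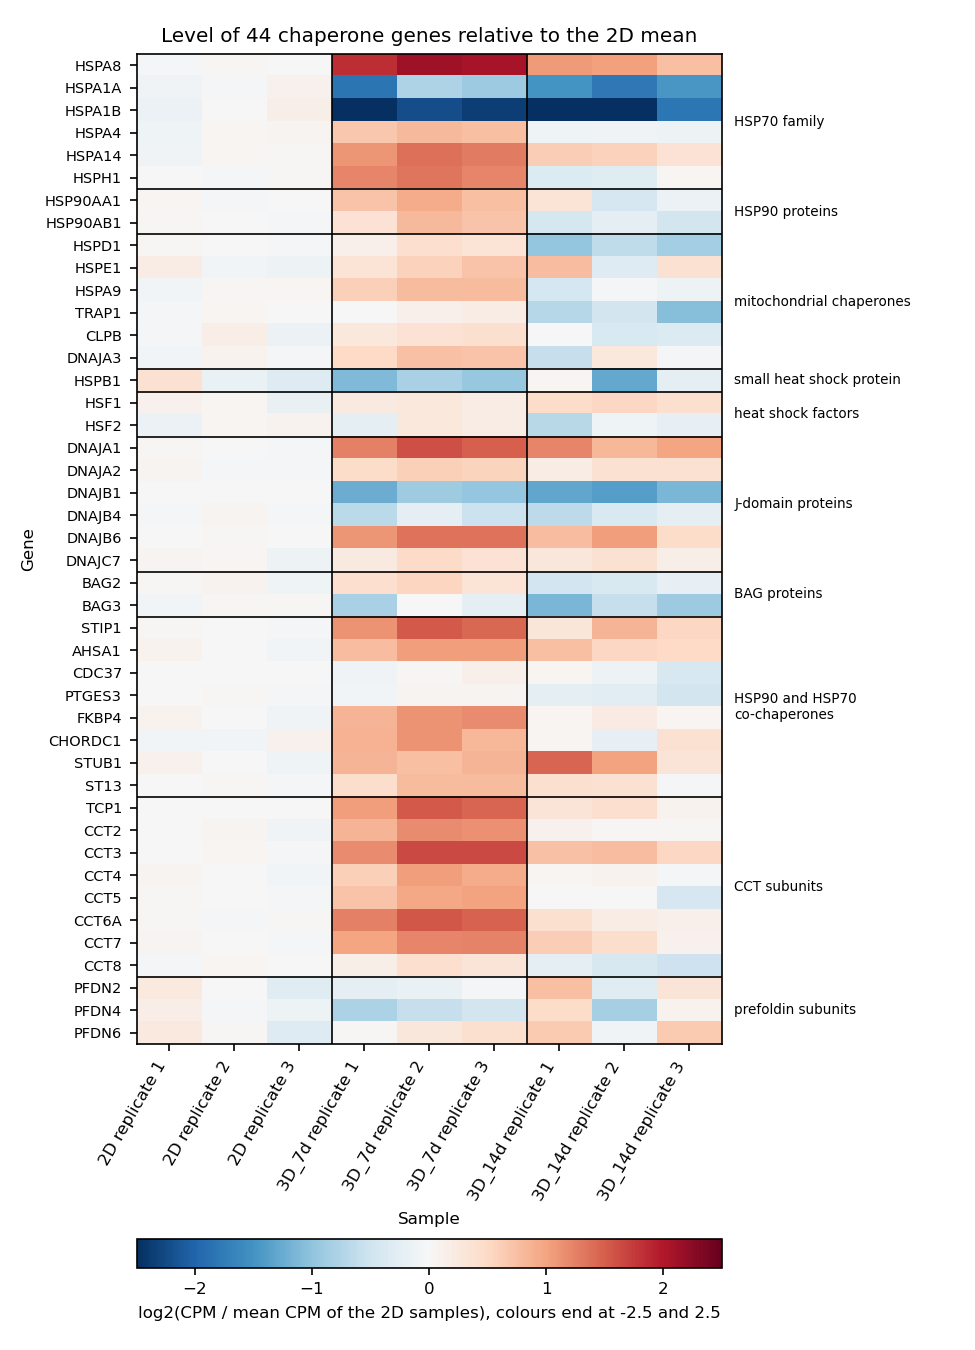
Level of each of the 44 genes (rows, ordered by role) in each of the 9 samples (columns), as log2 of the CPM over the mean CPM of the 3 samples in 2D, with red above and blue below that mean. The columns of day 7 are red for most roles, with HSPA1A, HSPA1B, DNAJB1, HSPB1, DNAJB4 and PFDN4 in blue below every sample in 2D. The red is paler or absent at day 14 for most genes. The means of HSPB1, HSF1, STUB1, PFDN2, PFDN4 and PFDN6 were higher at day 14 than at day 7, and those of HSPA1B and DNAJB4 slightly so.

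The promoters of genes that rose and of genes that fell are shown because heat shock elements are known from many genes of this family. The windows are those of RefSeq on GRCh38.p14, 300 bases long, from 250 bases before to 50 bases after a start site, and 37 of the 44 genes have at least 1. HSPA14, HSF1, FKBP4, STUB1, ST13, CCT6A and PFDN2 had none in the table. A heat shock element is built from repeats of a unit of 5 bases in alternating direction, and 2 adjacent units read GAANNTTC or TTCNNGAA, each its own reverse complement, so that both strands were searched at once. A gene was counted when any of its windows held the letters, and 12 of the 37 genes have several windows. All 27305 genes in the table have 35116 windows, and the shares were not adjusted for the number of windows per gene. Either pair was found for 19 of the 37 genes (51.4%) and for 16.2% of the 27305 genes. A run of 3 adjacent units, in which both pairs overlap, was found for 7 of the 37 genes (18.9%) and for 0.608% of all genes. These 7 were HSPA8, HSP90AA1, HSP90AB1, HSPD1, DNAJA1, DNAJB6 and CHORDC1. Of them 6 were higher at day 7, HSPD1 being the exception, and none was lower, while 21 of all 37 genes were higher. Of all tested genes, 22.2% were higher and 21.2% lower at day 7. The share called among all genes with a run of 3 units is not given. The 4 genes that were lower at day 7 each held the pair GAANNTTC and no exact run of 3 units, and 9 genes that were higher held this pair too. Only exact matches were counted, so a run in which 1 unit differs by a base is not among them. The E-box CACGTG was found for HSPD1, HSPE1, HSPA9 and HSF2, which is 10.8% of the 37 genes against 8.77% of all genes. These matches describe letters in a window and not binding. Capitals below mark all pairs and runs of 3 units.
In HSPA1A (chr6:31815293-31815592, plus strand) and HSPA1B (chr6:31827488-31827787, plus strand), the pair begins 106 and 105 bases before the start.
HSPA1A: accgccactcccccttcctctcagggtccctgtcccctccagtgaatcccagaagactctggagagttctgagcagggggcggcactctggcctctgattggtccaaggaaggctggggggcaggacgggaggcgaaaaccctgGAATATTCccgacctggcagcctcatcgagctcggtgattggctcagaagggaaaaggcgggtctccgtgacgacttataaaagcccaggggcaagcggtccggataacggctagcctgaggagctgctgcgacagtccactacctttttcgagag
HSPA1B: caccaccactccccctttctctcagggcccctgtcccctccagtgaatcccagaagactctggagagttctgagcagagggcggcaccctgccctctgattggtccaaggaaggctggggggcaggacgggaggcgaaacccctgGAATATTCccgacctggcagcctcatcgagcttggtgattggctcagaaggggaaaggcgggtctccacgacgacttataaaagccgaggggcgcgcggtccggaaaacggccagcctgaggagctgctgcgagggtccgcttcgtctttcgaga
DNAJB1 (chr19:14518348-14518647, minus strand, one of 3 windows) holds pairs that begin 77 and 47 bases before the start.
DNAJB1: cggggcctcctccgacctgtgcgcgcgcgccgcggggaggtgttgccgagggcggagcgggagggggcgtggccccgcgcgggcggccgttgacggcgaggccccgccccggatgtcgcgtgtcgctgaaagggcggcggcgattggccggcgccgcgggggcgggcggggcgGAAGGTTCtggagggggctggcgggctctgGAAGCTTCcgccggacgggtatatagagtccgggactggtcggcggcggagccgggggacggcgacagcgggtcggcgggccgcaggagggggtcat
HSPA8 (chr11:123062087-123062386, minus strand) holds runs of 3 units that begin 230 and 55 bases before the start, and HSP90AB1 (chr6:44247693-44247992, plus strand, one of 3 windows) holds runs that begin 165 and 112 bases before it.
HSPA8: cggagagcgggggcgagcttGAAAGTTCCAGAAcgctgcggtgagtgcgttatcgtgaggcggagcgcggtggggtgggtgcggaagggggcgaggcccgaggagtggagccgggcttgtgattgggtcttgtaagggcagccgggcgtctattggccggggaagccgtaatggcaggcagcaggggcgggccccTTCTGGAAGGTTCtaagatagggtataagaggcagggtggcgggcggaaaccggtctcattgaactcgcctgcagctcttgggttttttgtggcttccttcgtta
HSP90AB1: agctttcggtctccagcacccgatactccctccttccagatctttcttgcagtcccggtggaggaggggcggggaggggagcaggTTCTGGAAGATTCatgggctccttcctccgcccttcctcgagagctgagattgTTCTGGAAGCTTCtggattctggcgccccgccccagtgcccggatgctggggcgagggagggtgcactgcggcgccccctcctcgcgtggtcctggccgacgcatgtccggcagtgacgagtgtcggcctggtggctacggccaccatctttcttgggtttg
Of the CCT genes with a window, TCP1 (chr6:159789553-159789852, minus strand) holds 1 pair, 231 bases before the start, and CCT3 (chr1:156338243-156338542, minus strand) holds none.
TCP1: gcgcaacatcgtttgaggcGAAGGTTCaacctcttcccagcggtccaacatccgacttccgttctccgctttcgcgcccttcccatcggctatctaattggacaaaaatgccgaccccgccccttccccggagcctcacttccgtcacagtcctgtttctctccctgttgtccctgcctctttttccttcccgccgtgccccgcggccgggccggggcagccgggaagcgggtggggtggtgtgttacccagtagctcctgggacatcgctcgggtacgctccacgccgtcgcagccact
CCT3: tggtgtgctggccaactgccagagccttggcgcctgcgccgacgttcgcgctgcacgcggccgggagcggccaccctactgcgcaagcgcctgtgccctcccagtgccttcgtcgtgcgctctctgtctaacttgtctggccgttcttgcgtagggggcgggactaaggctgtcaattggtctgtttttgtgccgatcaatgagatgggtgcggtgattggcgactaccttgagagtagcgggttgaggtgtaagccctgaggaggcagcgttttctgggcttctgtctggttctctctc

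Of the heat shock factors among the 44 genes, HSF1 was higher at day 14 and HSF2 was not called. HSF1, the main activator of the heat shock response, was at 124, 120 and 101 CPM in 2D, at 134, 138 and 130 CPM at day 7 and at 159, 165 and 152 CPM at day 14. Its levels did not overlap between the 3 conditions, and those at day 14 were the highest. Against 2D, the log2 fold change was 0.22 (SE 0.13, adjusted p = 0.184) at day 7 and 0.46 (SE 0.13, adjusted p = 0.0146) at day 14, and 0.24 (adjusted p = 0.181) between the time points. The call at day 14 was not made without replicate 2 or replicate 3 of 2D, with log2 fold changes of 0.46 and 0.34, when libraries were scaled by total counts, with 0.26, or without the filter on low counts, with 0.41. With a trend with gene length removed, HSF1 was called higher at day 7, with 0.35. Other genes overlap 6.14% of the exonic bases of HSF1. HSF2, a related factor that can form mixed trimers with HSF1, was at 26.7, 30.6 and 31.7 CPM in 2D, at 25.6, 35.6 and 33.9 CPM at day 7 and at 18.4, 27.7 and 25.6 CPM at day 14. The groups overlapped in all comparisons, and none of its log2 fold changes, 0.09 at day 7, -0.31 at day 14 and -0.41 between them, passed the threshold (adjusted p = 0.717, 0.217 and 0.126). The direction of the value at day 7 turned with scaling by total counts, to -0.07, without replicate 1 of 2D, to -0.01, and without replicate 2 of day 7, to -0.03.

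Within the HSP70 family, HSPA8, HSPA4, HSPA14 and HSPH1 were higher at day 7, and HSPA1A and HSPA1B were lower. HSPA8, which encodes the constitutive cytosolic HSP70 (HSC70), was at 708, 742 and 722 CPM in 2D, at 2614, 3157 and 3009 CPM at day 7 and at 1521, 1475 and 1225 CPM at day 14. The 3 conditions did not overlap, with day 7 highest and day 14 between day 7 and 2D. HSPA8 rose 4.04-fold at day 7, a log2 fold change of 2.01 (SE 0.14, adjusted p = 2.91e-06), and was still 1.94-fold higher at day 14 (log2 fold change 0.96, SE 0.14, adjusted p = 0.000287). Between the time points it fell by 1.06 on the log2 scale (SE 0.14, adjusted p = 0.000362). HSPA8 took 6.96%, 7.35% and 7.34% of the counts on the 44 genes in 2D, 16.2%, 15.9% and 15.7% at day 7 and 13.6%, 13.7% and 12.5% at day 14.

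HSPA1A and HSPA1B encode the heat-inducible HSP70 and are neighbouring, nearly identical copies on chromosome 6, at 31815464 to 31817946 and 31827738 to 31830254 (GRCh38). Because the handling of reads that fit both copies is not given, the split between them is uncertain, and another gene overlaps 36.6% of the exonic bases of HSPA1B. HSPA1A was at 88.2, 91.3 and 101 CPM in 2D, at 26.4, 55.1 and 49.9 CPM at day 7 and at 33.1, 27.2 and 34.3 CPM at day 14. HSPA1B was at 95.5, 105 and 118 CPM in 2D, at 12.3, 22.7 and 20.9 CPM at day 7 and at 12.6, 13.2 and 30.2 CPM at day 14. Every sample in 3D lay below every sample in 2D for both genes, and the time points overlapped. HSPA1A fell by 1.09 on the log2 scale at day 7 (SE 0.23, adjusted p = 0.00211) and by 1.57 at day 14 (SE 0.23, adjusted p = 0.000313). HSPA1B fell by 2.51 at day 7 (SE 0.33, adjusted p = 9.67e-05) and by 2.51 at day 14 (SE 0.33, adjusted p = 0.00014). The difference between the time points was -0.47 for HSPA1A and 0.01 for HSPA1B (adjusted p = 0.135 and 0.991). Without replicate 1 of day 7, HSPA1A was called lower at day 14 than at day 7, with -0.73. For HSPA1B the sign of this difference turned without replicate 1 of day 7, to -0.22, and without replicate 3 of day 14, to -0.53.

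The sum of both copies does not depend on the split. It would still miss reads left uncounted because they fit both copies or the gene that overlaps HSPA1B. The ratios to HSPA8 below rest on this sum. The sum was 184, 196 and 219 CPM in 2D, 38.7, 77.7 and 70.7 CPM at day 7 and 45.6, 40.4 and 64.5 CPM at day 14. Every sample in 3D was below every sample in 2D. Counts on HSPA1B were 1.08 to 1.16 times those on HSPA1A in 2D, 0.412 to 0.464 times at day 7, and 0.380, 0.485 and 0.882 times at day 14, where replicate 3 was the highest. Per exonic length, the RPKM of HSPA8 was 3.06 to 3.57 times the summed RPKM of both copies in 2D, 37.5 to 62.4 times at day 7 and 17.6 to 33.7 times at day 14. The constitutive form thus made up more of the HSP70 transcripts in every sample in 3D than in any sample in 2D.

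HSPH1 encodes HSP110, a large HSP70 relative that releases nucleotide from HSP70. It was at 134, 133 and 139 CPM in 2D, at 314, 343 and 316 CPM at day 7 and at 106, 109 and 140 CPM at day 14. Day 7 lay above all other samples, while 2D and day 14 overlapped. HSPH1 rose by a log2 fold change of 1.26 at day 7 (SE 0.14, adjusted p = 3.55e-05) and fell by 1.45 between the time points (SE 0.14, adjusted p = 9.27e-05), with a value of -0.19 (adjusted p = 0.316) against 2D at day 14. Without replicate 3 of day 14 that last value was -0.33 and passed the threshold. HSPA14, a ribosome-associated HSP70, was at 60.4, 66.3 and 65.5 CPM in 2D, at 138, 166 and 159 CPM at day 7 and at 97.5, 95.1 and 81.8 CPM at day 14, with no overlap between conditions. Its log2 fold change was 1.27 at day 7 (SE 0.14, adjusted p = 2.9e-05), 0.51 at day 14 (SE 0.14, adjusted p = 0.0106) and -0.75 between them (SE 0.14, adjusted p = 0.00212). The call at day 14 was lost without any single sample in 2D, with log2 fold changes of 0.45, 0.51 and 0.49, and with scaling by total counts, with 0.30, or no filter, with 0.46. HSPA4, another HSP110 relative, rose by 0.75 at day 7, fell by 0.85 between the time points and had a value of -0.10 at day 14 against 2D that did not pass.

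The J-domain proteins, which deliver clients to HSP70 and start its ATP cycle, were higher at day 7 for 4 of 6 genes and lower for DNAJB1 alone, beside 22.2% and 21.2% of all tested genes. DNAJA1, a broadly expressed partner of HSPA8, was at 219, 215 and 208 CPM in 2D, at 510, 652 and 600 CPM at day 7 and at 501, 382 and 423 CPM at day 14. All samples in 3D were above those in 2D, and day 14 was just below day 7. The log2 fold change was 1.46 at day 7 (SE 0.15, adjusted p = 2.03e-05) and 1.03 at day 14 (SE 0.15, adjusted p = 0.000278). Between the time points it was -0.43 (SE 0.15, adjusted p = 0.0439), a call that depended on the samples used. It was lost without replicate 1, 2 or 3 of 2D, with -0.42 for each, without replicate 2 or 3 of day 7, with -0.34 and -0.39, and without replicate 2 or 3 of day 14, with -0.34 and -0.41. Scaling by DESeq2 size factors, with -0.42, or by TMM without mitochondrial, immunoglobulin and ribosomal protein genes, with -0.41, no filter, with -0.49, and a fit of the 2 time points alone, with -0.41, also ended it. DNAJB6, known for keeping aggregation-prone proteins soluble, was at 73.5, 76.0 and 73.5 CPM in 2D, at 160, 190 and 191 CPM at day 7 and at 126, 154 and 102 CPM at day 14. Its conditions did not overlap, and day 7 was highest. DNAJB6 rose by 1.28 at day 7 (SE 0.16, adjusted p = 7.73e-05) and by 0.78 at day 14 (SE 0.16, adjusted p = 0.00255). The value between the time points, -0.50 (adjusted p = 0.033), was no longer past the threshold without replicate 1, 2 or 3 of 2D, with -0.49 for each, without replicate 2 or 3 of day 7, with -0.45 and -0.44, or without replicate 3 of day 14, with -0.36. Nor did it pass without the filter, with -0.55, or in a fit of the 2 time points alone, with -0.48.

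DNAJB1 encodes HSP40, the heat-inducible partner of the inducible HSP70. It was at 369, 359 and 364 CPM in 2D, at 155, 196 and 186 CPM at day 7 and at 148, 141 and 165 CPM at day 14. Samples in 3D lay below all samples in 2D and overlapped between the time points, as for HSPA1A and HSPA1B. DNAJB1 fell by 1.03 on the log2 scale at day 7 and by 1.27 at day 14, both called, with a difference of -0.24 between the time points that did not pass. The gene was singled out after its values were seen. The other 3 J-domain genes changed less. DNAJA2 rose by 0.54 at day 7 and DNAJC7, of whose exons 31.9% lie within other genes, by 0.36. DNAJB4 had values of -0.48 and -0.41 that did not pass the threshold, and no gene of these 3 was called at day 14 or between the time points. DNAJB4 did pass at day 7, as lower, in 8 alternatives, with values from -0.64 to -0.47, and at day 14 with scaling by total counts. The call on DNAJC7 at day 7 was lost in 10 alternatives, with values from 0.20 to 0.36, and that on DNAJA2 without the filter, with 0.54. DNAJA2 was called higher at day 14 in 4, with values from 0.32 to 0.39.

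**Figure D3:**
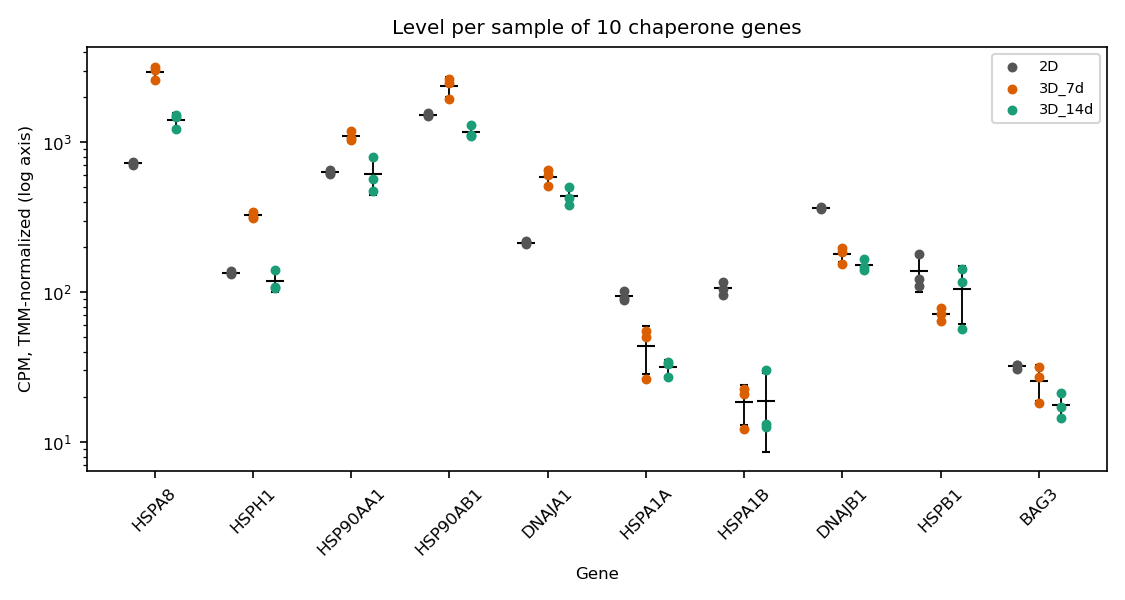
CPM on a log axis of 10 chaperone genes in the 9 samples (points, coloured by condition), with the mean and SD of the 3 samples of each condition in black. HSPA8, HSPH1, HSP90AA1, HSP90AB1 and DNAJA1 are highest at day 7, and HSPA1A, HSPA1B and DNAJB1 are below 2D in every sample in 3D.

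BAG proteins bind HSP70 and end its cycle by releasing nucleotide. BAG3, which links HSP70 to small heat shock proteins and to autophagy and is itself induced by HSF1, was at 30.6, 32.6 and 32.6 CPM in 2D, at 18.1, 31.6 and 27.2 CPM at day 7 and at 14.4, 21.3 and 17.1 CPM at day 14. Day 7 overlapped with both other conditions, while day 14 lay below 2D. At day 14 BAG3 fell by 0.86 on the log2 scale (SE 0.21, adjusted p = 0.0076). The values at day 7, -0.32, and between the time points, -0.54, did not pass (adjusted p = 0.242 and 0.0745), although the latter did without replicate 1 of day 7, with -0.74, without replicate 2 of day 14, with -0.70, or with the length trend removed, with -0.59. BAG2, of whose exons 44.2% lie within other genes, was at 31.9, 33.4 and 29.2 CPM in 2D, at 42.0, 45.4 and 40.0 CPM at day 7 and at 22.7, 24.2 and 27.4 CPM at day 14. The 3 conditions did not overlap, with day 7 highest and day 14 lowest. BAG2 was higher by 0.43 at day 7 (SE 0.15, adjusted p = 0.0302), a call lost without replicate 1, 2 or 3 of 2D, with 0.40, 0.43 and 0.33, without replicate 1, 2 or 3 of day 7, with 0.42, 0.35 and 0.43, with scaling by total counts, with 0.28, and without the filter, with 0.43. It fell by 0.78 between the time points (SE 0.15, adjusted p = 0.00272), and against 2D at day 14 it stood at -0.35 (adjusted p = 0.0796), or at -0.42 and past the threshold without replicate 3 of day 14, and at -0.54 with scaling by total counts.

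Both cytosolic HSP90 genes were raised at day 7 alone among the calls against 2D. HSP90AA1, the inducible form, was at 652, 612 and 626 CPM in 2D, at 1032, 1194 and 1058 CPM at day 7 and at 794, 474 and 568 CPM at day 14. HSP90AB1, the constitutive form, was at 1555, 1520 and 1496 CPM in 2D, at 1954, 2655 and 2494 CPM at day 7 and at 1118, 1304 and 1105 CPM at day 14. Day 7 was above all other samples for both genes, and at day 14 HSP90AB1 lay below 2D while HSP90AA1 overlapped it, with replicate 1 of day 14 above all samples in 2D. The log2 fold change at day 7 was 0.80 for HSP90AA1 (SE 0.18, adjusted p = 0.003) and 0.64 for HSP90AB1 (SE 0.15, adjusted p = 0.00396). Between the time points the genes fell by 0.84 (SE 0.18, adjusted p = 0.00475) and 1.01 (SE 0.15, adjusted p = 0.000656). At day 14 against 2D, the values were -0.04 (adjusted p = 0.875) and -0.37 (adjusted p = 0.0619), and HSP90AB1 passed the threshold without replicate 1 of day 7, with -0.40, without replicate 2 of day 14, with -0.45, with scaling by total counts, with -0.58, with the length trend removed, with -0.35, or in DESeq2, with -0.37. The value of HSP90AA1 turned positive without replicate 2 or 3 of day 14, at 0.12 and 0.01. Per exonic length, HSP90AB1 was the most abundant of the 44 genes in each sample in 2D and HSPA8 in each sample in 3D. The RPKM of HSP90AB1 was 3.22 to 3.36 times that of HSP90AA1 in 2D, 2.56 to 3.18 times at day 7, and 1.90, 3.72 and 2.63 times at day 14.

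Of the 8 co-chaperones of HSP90 and HSP70, 6 were higher at day 7, 3 were higher at day 14 and 3 were lower at day 14 than at day 7, where the shares of all tested genes were 22.2%, 19.0% and 13.6%. STIP1, also called HOP, passes clients from HSP70 to HSP90 and was at 261, 258 and 249 CPM in 2D, at 557, 737 and 695 CPM at day 7 and at 318, 460 and 366 CPM at day 14. Its conditions did not overlap. STIP1 rose by 1.37 on the log2 scale at day 7 (SE 0.17, adjusted p = 5.69e-05) and fell by 0.80 between the time points (SE 0.16, adjusted p = 0.00422). The remaining rise at day 14, 0.57 (SE 0.16, adjusted p = 0.0153), was not called without any single sample of 2D, with values of 0.56, 0.54 and 0.52, with scaling by total counts, with 0.37, or without the filter, with 0.52. FKBP4, an immunophilin of steroid receptor complexes, was at 119, 111 and 104 CPM in 2D, at 200, 244 and 253 CPM at day 7 and at 115, 128 and 115 CPM at day 14. Day 7 was above both other conditions, which overlapped. The log2 fold change of FKBP4 was 1.06 at day 7 (SE 0.14, adjusted p = 0.000101), 0.10 at day 14 (adjusted p = 0.607) and -0.96 between them (SE 0.14, adjusted p = 0.000608), and 13.8% of its exons lie within other genes. CHORDC1, a zinc-binding HSP90 partner, was at 42.4, 42.2 and 47.8 CPM in 2D, at 80.6, 96.1 and 78.3 CPM at day 7 and at 45.4, 38.0 and 57.8 CPM at day 14. It followed the same order, with a log2 fold change of 0.95 at day 7 (SE 0.17, adjusted p = 0.000824), 0.09 at day 14 (adjusted p = 0.699) and -0.85 between them (SE 0.17, adjusted p = 0.00367). With scaling by total counts, the values of FKBP4 and CHORDC1 at day 14 against 2D were both -0.10, and without replicate 3 of day 14 that of CHORDC1 was -0.08.

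AHSA1, which speeds up the ATPase of HSP90, rose by 0.96 at day 7 and 0.59 at day 14. Its call at day 14 was lost without the filter, with 0.54. ST13, also called HIP, rose by 0.68 at day 7, and passed at day 14 without replicate 3 of day 14, with 0.40. Between the time points, AHSA1 (-0.37) and ST13 (-0.42) did not pass in the main fit. Both were called lower with scaling by total counts (-0.42 and -0.47) and without replicate 1 of day 7 (-0.45 and -0.53) or of day 14 (-0.43 and -0.48). AHSA1 also passed with the length trend removed (-0.54), and ST13 without replicate 2 of day 14 (-0.48). STUB1, the ubiquitin ligase CHIP, was the co-chaperone with the highest value at day 14, 0.99 against 0.82 at day 7, although 42.7% of its exons lie within JMJD8 and its samples at day 14 were spread from 101 to 221 CPM. Its call at day 7 was lost without replicate 3 of 2D, with 0.71. CDC37, which recruits kinases, and PTGES3, the p23 that stabilises closed HSP90, differed by 0.03 from 2D at day 7 and were not called in any comparison of the main fit. PTGES3 was called lower at day 14 than in 2D with scaling by total counts, with -0.53, with the length trend removed, with -0.32, without replicate 1 of day 14, with -0.36, and in DESeq2, with -0.32. It was lower than at day 7 in the same 4 settings and without replicate 2 of day 14, with values from -0.50 to -0.34. CDC37 was called lower at day 14 than in 2D with scaling by total counts, with -0.36, and than at day 7 with the length trend removed, with -0.42. In RPKM, PTGES3 ranked 3 among the 44 genes in 2D, at 221, and 10 at day 7, at 225, so that its level stayed close to that in 2D while others passed it.

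HSPB1 encodes HSP27, a small heat shock protein that holds unfolded proteins without ATP. It was at 181, 123 and 111 CPM in 2D, at 64.6, 78.6 and 71.1 CPM at day 7 and at 143, 56.7 and 117 CPM at day 14. Day 7 lay below 2D, whereas day 14 was spread over the range of both. The log2 fold change at day 7 was -0.95 (SE 0.28, adjusted p = 0.016). It was not called without replicate 1 of 2D, with -0.75, without replicate 1 of day 7, with -0.90, or after removal of a trend with gene length, with -0.55. At day 14 the value was -0.39 against 2D (adjusted p = 0.3) and 0.56 against day 7 (adjusted p = 0.149), which passed without replicate 2 of day 14, with 0.87.

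Among the 6 mitochondrial chaperones, 2 were higher at day 7 (22.2% of all tested genes), 2 were lower at day 14 than in 2D (17.2%) and 5 were lower at day 14 than at day 7 (13.6%). HSPA9, the mitochondrial HSP70 (mortalin), was at 409, 438 and 441 CPM in 2D, at 651, 743 and 748 CPM at day 7 and at 317, 421 and 393 CPM at day 14. Day 7 was highest, and day 14 overlapped with 2D. HSPA9 rose by 0.73 at day 7 (SE 0.14, adjusted p = 0.00137), fell by 0.92 between the time points (SE 0.14, adjusted p = 0.000915) and stood at -0.19 at day 14 against 2D (adjusted p = 0.323). HSPD1, the HSP60 of the mitochondrial chaperonin, was at 478, 466 and 457 CPM in 2D, at 510, 626 and 592 CPM at day 7 and at 238, 301 and 258 CPM at day 14. Its conditions did not overlap, with day 14 lowest. HSPD1 fell by 0.81 at day 14 against 2D (SE 0.14, adjusted p = 0.000838) and by 1.12 against day 7 (SE 0.14, adjusted p = 0.000282). Its value at day 7, 0.30 (adjusted p = 0.0961), passed the threshold without replicate 1 of day 14, with 0.29, in a fit of 2D and day 7 alone, with 0.29, and with the length trend removed, with 0.41.

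DNAJA3, the J-domain partner of HSPA9, was at 134, 148 and 138 CPM in 2D, at 197, 231 and 228 CPM at day 7 and at 94.3, 167 and 135 CPM at day 14. Day 7 was above all other samples, and the samples at day 14 lay on both sides of 2D. The log2 fold change of DNAJA3 was 0.64 at day 7 (SE 0.18, adjusted p = 0.0132), -0.73 between the time points (SE 0.18, adjusted p = 0.0118) and -0.09 at day 14 against 2D (adjusted p = 0.746). The call at day 7 was lost without replicate 1 or 3 of 2D, with 0.57 and 0.58, without replicate 2 or 3 of day 7, with 0.57 in both, and with scaling by total counts, with 0.49. At day 14 the sign against 2D turned without replicate 1 of day 14, to 0.11. TRAP1, the mitochondrial HSP90, fell by 0.72 at day 14 against 2D and by 0.82 against day 7, and 28.7% of its exons lie within DNASE1. CLPB, a disaggregase of the intermembrane space, fell by 0.57 between the time points. That call was lost without replicate 2 or 3 of day 7, with -0.55 and -0.52, in a fit of the 2 time points alone, with -0.55, and with the length trend removed, with -0.52. HSPE1, the HSP10 lid of the HSPD1 ring, was not called in any comparison of the main fit. It was called higher at day 7 with the length trend removed, with 0.97, without the filter, with 0.54, in a fit of 2D and day 7 alone, with 0.53, and without replicate 1 or 2 of day 14, with 0.53 and 0.55. Without replicate 2 of day 14 it was also higher at day 14, with 0.60, and with the length trend removed it was lower at day 14 than at day 7, with -0.73. It lies head to head with HSPD1 on chromosome 2, where HSPD1 spans 197486584 to 197500274 and HSPE1 spans 197500140 to 197503449 (GRCh38), and 35.0% of its exons lie within HSPD1 or the readthrough gene HSPE1-MOB4.

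The CCT chaperonin is built from 8 different subunits, each encoded by its own gene. At day 7, 7 of the 8 genes were called higher (22.2% of all tested genes were), with CCT8 as the exception. All 8 genes lay above every sample in 2D in every sample at day 7. The share of all tested genes that separate in this way is not given. The median log2 fold change of the 8 genes was 1.11 at day 7, 0.15 at day 14 and -0.92 between the time points. All 8 were called lower at day 14 than at day 7 (13.6% of all tested genes), by 0.68 for CCT8 to 1.19 for CCT6A on the log2 scale. At day 14 against 2D, CCT3 was higher (19.0% of all tested genes) and CCT8 lower (17.2%), and the other 6 did not pass, with values from -0.13 for CCT5 to 0.40 for CCT7. CCT7 passed without replicate 3 of day 14, with 0.53, with the length trend removed and in DESeq2, and CCT5 with scaling by total counts, with -0.34. The call on CCT8 at day 14 (-0.38) was lost in 7 of the 9 analyses without 1 sample, with values from -0.42 to -0.31. It was still made without replicate 1 of day 7 or replicate 1 of day 14. The call was also lost with DESeq2 size factors (-0.37), without the filter (-0.43) and in a fit of 2D and day 14 alone (-0.39). With scaling by total counts, CCT2 and CCT4 changed sign at day 14.

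CCT6A was at 326, 309 and 327 CPM in 2D, at 766, 945 and 889 CPM at day 7 and at 421, 365 and 349 CPM at day 14. The conditions did not overlap, and day 14 was just above 2D. CCT6A rose by a log2 fold change of 1.43 at day 7 (SE 0.14, adjusted p = 1.43e-05) and fell by 1.19 between the time points (SE 0.14, adjusted p = 0.000179), which left 0.24 at day 14 (adjusted p = 0.189). CCT3 was at 357, 371 and 343 CPM in 2D, at 805, 1116 and 1126 CPM at day 7 and at 595, 609 and 509 CPM at day 14. It kept the largest difference of the 8 genes at day 14. CCT3 rose by 1.51 at day 7 (SE 0.16, adjusted p = 2.35e-05), stood at 0.68 at day 14 (SE 0.16, adjusted p = 0.00477) and fell by 0.83 between them (SE 0.16, adjusted p = 0.00257). CCT2 was at 219, 230 and 206 CPM in 2D, at 392, 498 and 482 CPM at day 7 and at 234, 222 and 224 CPM at day 14. Here 2D and day 14 overlapped and day 7 was above both. CCT2 rose by 1.07 at day 7 (SE 0.14, adjusted p = 8.63e-05), fell by 1.01 between the time points (SE 0.14, adjusted p = 0.000425) and stood at 0.05 at day 14 (adjusted p = 0.78), a value whose sign was negative with scaling by total counts, at -0.15, and without replicate 3 of 2D, at -0.02. The remaining subunits TCP1, CCT4, CCT5 and CCT7 rose by 1.36, 0.87, 0.90 and 1.16 at day 7, and CCT8 by 0.30, which was not past the threshold in the main fit. It was called higher with the length trend removed, with 0.44, in a fit of 2D and day 7 alone, with 0.28, and without replicate 1 of day 14, with 0.29. Other genes cover 45.3% of the exons of CCT5, 19.1% of CCT4 and 16.2% of TCP1.

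Since the subunits enter the ring in equal numbers, their levels were also compared per exonic length. The mean RPKM of the 8 genes was 129, 129 and 124 in 2D, 237, 301 and 295 at day 7 and 161, 153 and 131 at day 14. Every sample at day 7 was above the samples at day 14, which were in turn above those in 2D. Without TMM scaling, the 8 genes took 0.267%, 0.269% and 0.251% of counts at day 14 and 0.263%, 0.267% and 0.266% in 2D, and these overlapped. The highest subunit was CCT7 in the 3 samples in 2D and in replicate 1 of day 14, and CCT3 in all others, while CCT4 was the lowest in 8 samples and CCT5 in replicate 3 of day 14. The ratio of the highest to the lowest RPKM was between 2.24 and 2.29 in 2D, 3.08 and 3.40 at day 7 and 3.29 and 3.53 at day 14. By this ratio the transcripts were less even between subunits in every sample in 3D than in 2D.

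**Figure D4:**
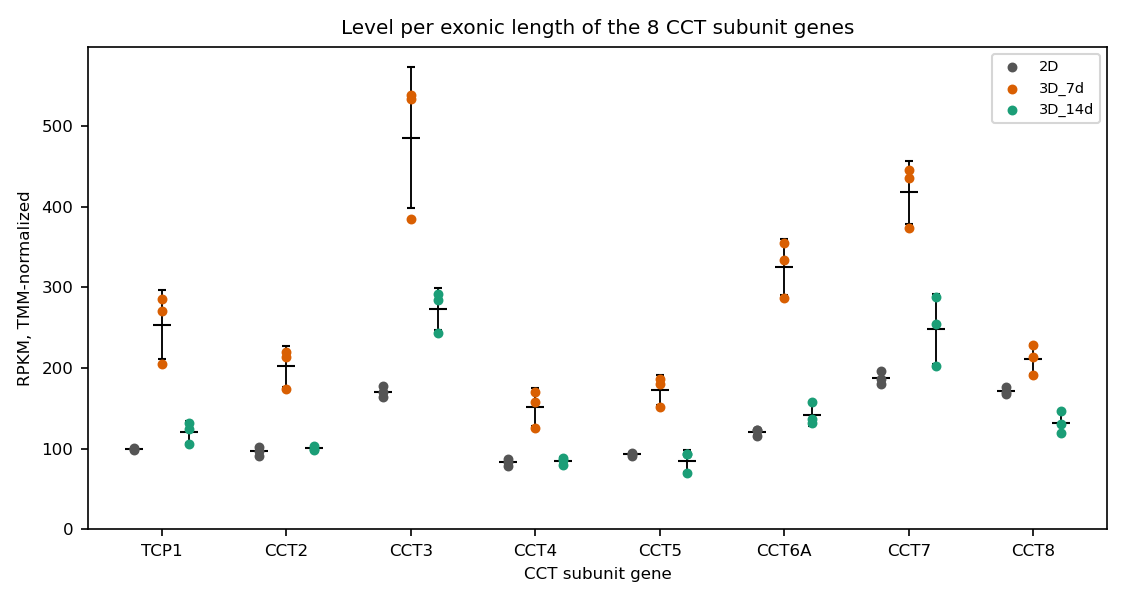
RPKM of the 8 CCT subunit genes in the 9 samples (points, coloured by condition), with the mean and SD of the 3 samples of each condition in black. Points of day 7 are above those of 2D for each subunit, and the 7 called subunits return towards 2D at day 14.

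Prefoldin hands unfolded actin and tubulin to the CCT ring, and 3 of its subunit genes are listed here. PFDN2 was at 95.3, 81.8 and 65.7 CPM in 2D, at 69.5, 72.3 and 79.6 CPM at day 7 and at 135, 65.2 and 101 CPM at day 14. PFDN4 was at 34.5, 29.9 and 28.3 CPM in 2D, at 17.8, 20.7 and 22.5 CPM at day 7 and at 42.5, 17.5 and 32.8 CPM at day 14. PFDN6 was at 29.4, 25.3 and 20.0 CPM in 2D, at 25.4, 30.2 and 32.8 CPM at day 7 and at 39.1, 23.6 and 39.2 CPM at day 14. Day 14 overlapped with both other conditions for all 3 genes, since replicate 2 was low and replicate 1 or 3 high, and at day 7 PFDN4 alone lay below 2D without overlap. None was called in any comparison of the main fit. The log2 fold changes at day 7 were -0.13 for PFDN2, -0.61 for PFDN4 and 0.24 for PFDN6 (adjusted p = 0.663, 0.0738 and 0.389). Those at day 14 were 0.31, 0.00 and 0.45 (adjusted p = 0.296, 0.999 and 0.125), and those between the time points 0.45, 0.61 and 0.21 (adjusted p = 0.155, 0.0956 and 0.502). Without replicate 2 of day 14, PFDN2 and PFDN6 were higher than in 2D, with 0.55 and 0.66, and PFDN2 and PFDN4 were higher than at day 7, with 0.68 and 0.89. PFDN4 was called lower at day 7 without replicate 1 or 2 of day 14, with -0.62 and -0.61, with scaling by total counts, with -0.76, without the filter, with -0.61, in a fit of 2D and day 7 alone, with -0.62, and in DESeq2, with -0.62. Its value of 0.00 at day 14 turned negative without any sample but replicate 1 of 2D or replicate 2 of day 14. It was then -0.05 and -0.09 without replicates 2 and 3 of 2D, -0.01 without each sample of day 7, and -0.29 and -0.04 without replicates 1 and 3 of day 14. Removal of the length trend turned the sign of PFDN2 at day 7, to 0.42, which was called higher, and between the time points, to -0.18. With a block for replicate number as well, PFDN2 at day 7 was 0.43 and not called.

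Short transcripts moved together within day 14. HSPE1, HSPB1 and PFDN2, whose exons span 876, 931 and 598 bases, were all highest in replicate 1 and lowest in replicate 2 of day 14. Over the 980 tested genes under 1000 bases, the median deviation from the mean of day 14 was 0.39 in replicate 1, -0.27 in replicate 2 and -0.05 in replicate 3 on the log2 scale, while it lay between -0.07 and 0.11 in 2D and between -0.02 and 0.03 at day 7. Removing the length trend changed calls on all 3, as given above. Without replicate 1 of day 14, 30 chaperone genes were higher and 6 lower at day 7, 10 higher and 8 lower at day 14, and 28 lower and 0 higher at day 14 than at day 7. In that fit 27.0% of all tested genes were higher and 26.8% lower at day 7, 21.3% and 18.5% at day 14, and 14.4% and 14.0% between the time points. The calls gained were HSPD1, HSPE1, CCT8 and CLPB (higher) and DNAJB4 and PFDN4 (lower) at day 7, DNAJA2 (higher) and PTGES3 (lower) at day 14, and AHSA1, PTGES3 and ST13 (lower) between the time points, and none was lost.

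**Figure D5:**
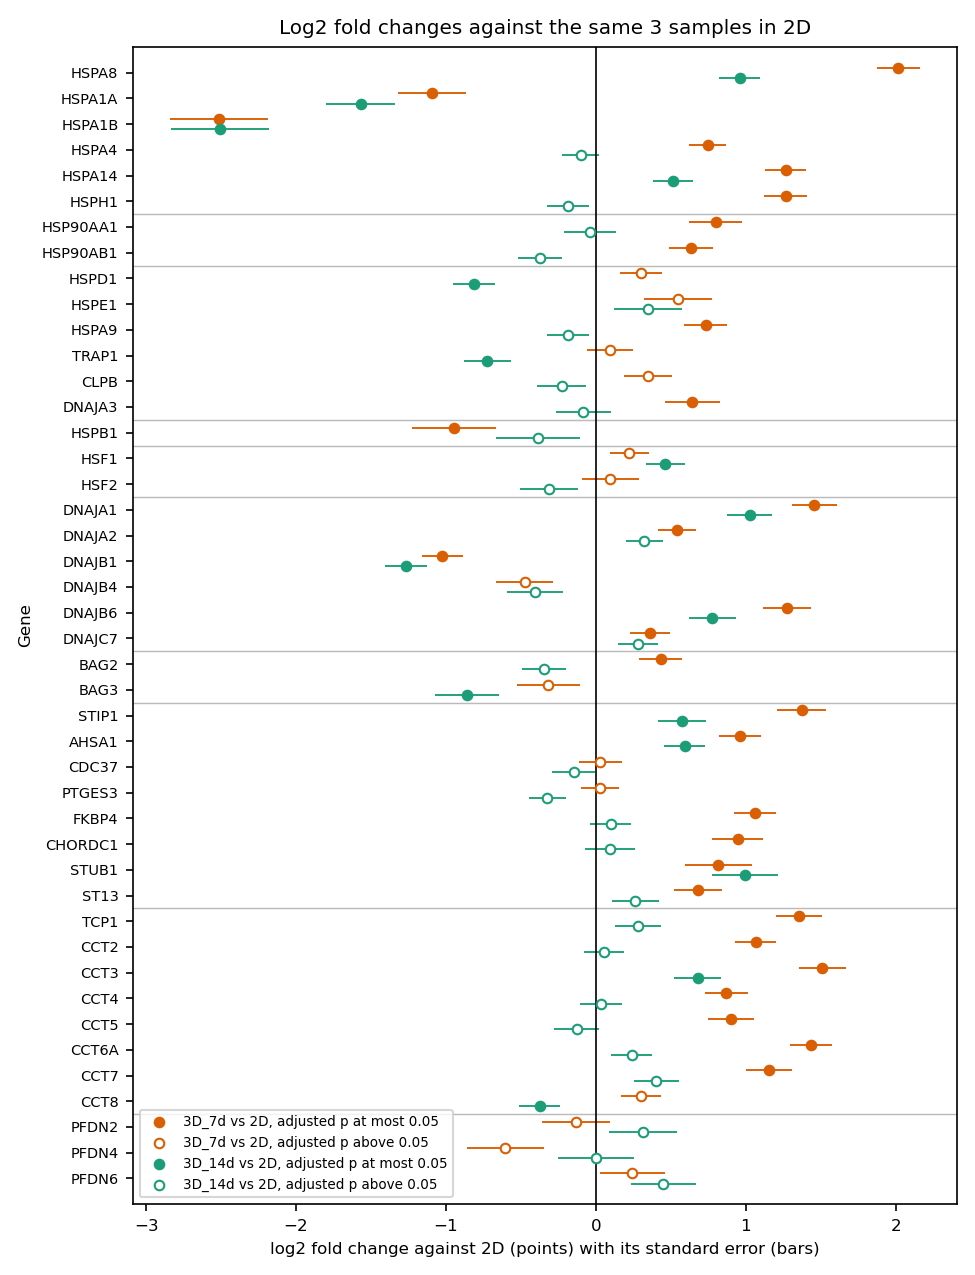
Log2 fold change of each of the 44 genes at day 7 and at day 14 against the same 3 samples in 2D (points) with its standard error (bars), filled where the adjusted p was at most 0.05. Values at day 7 reach from -2.51 for HSPA1B to 2.01 for HSPA8, and most of those at day 14 lie closer to 0.

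Related genes outside the 44 were counted in 7 lists, whose small counts stand beside 22.2% higher and 21.2% lower among all tested genes at day 7, 19.0% and 17.2% at day 14, and 14.5% and 13.6% between the time points. Of 21 other HSP70 and small heat shock genes, 11 were tested, and 4 were higher and 3 lower at day 7, 3 higher and 4 lower at day 14. HSPA6, a strictly heat-inducible HSP70 whose close copy HSPA7 makes its counts uncertain, was at 83.7, 82.4 and 96.2 CPM in 2D, at 4.38, 20.9 and 13.9 CPM at day 7 and at 11.3, 9.28 and 9.63 CPM at day 14. It lay far below 2D in all samples in 3D and fell by 2.74 at day 7 (SE 0.40, adjusted p = 0.000197), like HSPA1A and HSPA1B. HSPBP1, a nucleotide exchange factor of HSP70, rose by 1.25 at day 7 (SE 0.17, adjusted p = 0.000117). Among 30 other J-domain genes, 26 were tested, with 9 higher and 5 lower at day 7 and 5 higher and 2 lower at day 14. DNAJC11, a mitochondrial protein of whose exons 42.8% lie within THAP3, rose by 1.44 (adjusted p = 5.85e-05), and DNAJC2, which acts at the ribosome, fell by 1.16 (adjusted p = 3.7e-05). All 29 other co-chaperones and regulators were tested, with 15 higher and 5 lower at day 7, 7 higher and 5 lower at day 14 and a median of 0.43 on the log2 scale at day 7. The smallest p-values in that list belonged to HSF4, a heat shock factor and not a co-chaperone, which fell by 3.08 (adjusted p = 4.72e-05) to between 0.398 and 1.00 CPM, and to the pseudogene AHSA2P, which fell by 1.25 (adjusted p = 0.000105). Of the exons of AHSA2P 24.5% lie within USP34, and of those of HSF4 19.5% lie within another gene.

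Of 19 other prefoldin subunits and CCT partners, 18 were tested, with 8 higher and 2 lower at day 7 and 3 higher and 1 lower at day 14. PDRG1, a prefoldin-like subunit of whose exons 32.0% lie within TTLL9, rose by 1.11 (adjusted p = 0.00107), and TXNDC9, which binds CCT, by 0.71 (adjusted p = 0.00255). Actins and tubulins, the main clients of CCT, were tested for 11 of 13 genes. At day 7, 4 of them were higher and 0 lower, at day 14 1 was higher and 4 lower, and 9 were lower and 0 higher at day 14 than at day 7. Their median log2 fold change of -0.69 between the time points lies beside -0.92 for the CCT subunits. TUBB2A was at 5.79, 5.65 and 5.95 CPM in 2D, at 13.5, 17.0 and 18.0 CPM at day 7 and at 8.54, 8.97 and 8.75 CPM at day 14, and TUBG1 was at 167, 178 and 150 CPM, at 315, 323 and 300 CPM and at 173, 156 and 114 CPM. Both were highest at day 7 without overlap, with log2 fold changes of 1.48 (SE 0.19, adjusted p = 7.44e-05) and 0.92 (SE 0.16, adjusted p = 0.000684).

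Chaperones of the endoplasmic reticulum were higher at day 7 for 9 of 16 genes and lower for 1, and at day 14 for 4 and 0. The lectin chaperone CALR rose by 1.10 (adjusted p = 9.13e-05) and DNAJB11, the J-domain partner of BiP, by 1.05 (adjusted p = 0.000116), with 34.7% of the exons of DNAJB11 within other genes. The list of 14 partners and proteases of mitochondrial chaperones was mixed, with 3 higher and 4 lower at day 7 and 1 higher and 3 lower at day 14. Its smallest p-values belonged to DDIT3 and ATF5, transcription factors of stress responses and neither chaperones nor proteases. DDIT3 was at 154, 150 and 162 CPM in 2D, at 39.7, 41.9 and 43.6 CPM at day 7 and at 132, 103 and 84.6 CPM at day 14. It was lowest at day 7, where HSPA8 and the CCT genes were highest, with a log2 fold change of -1.90 (SE 0.16, adjusted p = 7.56e-06), and ATF5, of whose exons 22.9% lie within other genes, fell by 1.86 (SE 0.23, adjusted p = 7.86e-05).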

How the data were processed

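RNA-seq of MEC1 cells from 9 samples was used, 3 each for 2D, day 7 and day 14. The authors deposited a table of gene counts, made with Trimmomatic 0.39, STAR 2.5.3a on GRCh38 and featureCounts 1.6.4. Totals per sample were 54662799 to 85968686 counts, the medians being 68208856 (2D), 56649465 (3D_7d) and 56632405 (3D_14d). Genes with more than 1 CPM in at least 3 of 9 samples were tested, 13463 of the 51726 with any count. R 4.3.3 with edgeR 4.0.16 (limma 3.58.1) fitted a mean per group by quasi-likelihood after TMM scaling. Log2 CPM used a prior count of 2. Adjustment was by Benjamini-Hochberg over the tested genes, with calls at 0.05. The fit was tested on simulated data. The members and lists were chosen with earlier results of these data known. Full statistics are given for HSF1, HSF2, HSPA1A and HSPA1B, and for the 2 genes of each role with the smallest p at day 7 against 2D and the 2 with the smallest p between the time points. Other members are given by level, log2 fold change or count, and 2 genes are named from each list outside the 44, by the smallest p at day 7 against 2D. Alternatives were scaling by total counts, by DESeq2 size factors or by TMM without immunoglobulin, ribosomal protein and mitochondrial genes, no filter, a block for replicate number, removal of a trend with gene length (loess, span 0.4) with and without the block, a fit of the compared samples alone, the DESeq2 1.42.0 Wald test, a minimum absolute log2 fold change of 1, and each sample left out in turn. Exonic lengths were those of the count table, and promoters came from RefSeq on GRCh38.p14.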

Additional observations from a re-analysis of the deposited data

Results flagged for a closer look

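The difference between the effects at day 7 and at day 14 against 2D was tested by the contrast between the 2 time points, and 17 of the named genes passed. On the log2 scale these differences were -1.06 for HSPA8, -0.75 for HSPA14, -1.45 for HSPH1, -0.84 for HSP90AA1, -1.01 for HSP90AB1, -0.92 for HSPA9, -0.73 for DNAJA3, -1.12 for HSPD1, -0.43 for DNAJA1 and -0.50 for DNAJB6. They were -0.78 for BAG2, -0.80 for STIP1, -0.96 for FKBP4, -0.85 for CHORDC1, -1.19 for CCT6A, -0.83 for CCT3 and -1.01 for CCT2. All 17 are lower at day 14 than at day 7, where 13.6% of all tested genes were lower and 14.5% higher. Some of the named genes were chosen by the smallest p in this same contrast. Their passing is therefore partly set by that choice, and the count is no test of the set. Of all 44 genes, 25 were lower and 0 higher. Groups of 3 samples were not tested for outlying samples.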

How the results depend on the processing

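Of the calls on chaperone genes, 24 of 30 at day 7, 11 of 16 at day 14 and 22 of 25 between the time points were made in every other fit, the minimum log2 fold change aside. Fewer genes can pass when a log2 fold change of at least 1 is also required. Then 12 genes were higher at day 7, and 1 was higher and 3 lower at day 14. Between the time points, 8 were lower. The shares of all tested genes under this requirement are not given here. Without the filter, 5 were higher at day 14, where 4.07% of 51726 genes were higher (the cause was not tested). With scaling by total counts 14 were lower at day 14, where 24.1% of all tested genes were lower. This goes with the shift of all genes given above. With 1 sample left out, 22 to 30 were higher and 3 to 6 lower at day 7. At day 14, 6 to 12 were higher and 6 to 8 lower, and between the time points 0 to 3 higher and 22 to 29 lower. In these fits 15.5% to 27.0% of all tested genes were higher and 16.8% to 26.8% lower at day 7. The shares were 11.9% to 21.3% and 12.5% to 18.5% at day 14. Between the time points they were 8.9% to 16.4% and 8.1% to 16.0%.

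Among the genes with full statistics, the sign turned for these log2 fold changes, and the cause was not tested. None was called before, and PFDN2 at day 7 was called higher after removal of the length trend. With scaling by total counts, it turned for HSF2 at day 7 (-0.0664), for FKBP4 (-0.103), CHORDC1 (-0.101), CCT2 (-0.15) and PFDN4 (-0.21) at day 14, and for HSPA1B between the time points (-0.0014), and of the other members for TRAP1, CDC37 and PTGES3 at day 7 and CCT4 at day 14. Removing the length trend turned PFDN2 at day 7 (0.42), HSP90AA1 (0.025) and PFDN4 (-0.0944) at day 14, and HSPA1B (-0.0399) and PFDN2 (-0.18) between the time points, and of the other members STUB1 between them. Without the filter, CCT2 (-0.0023) and PFDN4 (-0.0691) at day 14 and HSPA1B (-0.0757) between the time points turned, as did CCT4 at day 14. PFDN4 at day 14 was -0.0147 when TMM left out mitochondrial, immunoglobulin and ribosomal protein genes and -0.0106 in a fit of 2D and day 14 alone, and that TMM also turned CDC37 and PTGES3 at day 7. With 1 sample left out, the values ranged from -0.0268 to 0.208 for HSF2 at day 7, from -0.269 to 0.115 for HSP90AA1, -0.289 to 0.111 for DNAJA3, -0.0792 to 0.227 for CHORDC1, -0.0218 to 0.0715 for CCT2 and -0.291 to 0.287 for PFDN4 at day 14, and from -0.526 to 0.244 for HSPA1B between the time points. Of the other members, CDC37 and PTGES3 at day 7 and CCT4 and CCT5 at day 14 also turned in some of these fits. So did HSPE1, DNAJB4 and STUB1 between the time points.

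Between 2D and day 14, residuals of samples with the same replicate number correlated by 0.1852, 0.1081 and 0.0931. Those with different numbers correlated by -0.1349 to 0.0399. Between 2D and day 7, the values were -0.035, -0.0177 and -0.1 for the same number and -0.0325 to 0.0719 for different numbers. They were -0.0157, -0.0052 and -0.0952, and -0.053 to 0.0807, between the time points. The numbers thus show no pairing through all 3 conditions. Pairing of 2D with day 14 alone was not tested further. A block for replicate number gave 25 genes higher and 4 lower at day 7, and 9 higher and 6 lower at day 14. Between the time points it gave 25 lower and 0 higher. Of all tested genes, 21.8% were then higher and 20.95% lower at day 7, and 18.3% and 17.5% at day 14. Between the time points, 13.5% of all tested genes were higher and 13.9% lower. The block ended the calls on DNAJC7 at day 7, CCT8 at day 14 and DNAJA1 between the time points (-0.43). BAG3 passed between the time points (-0.53). With this block, PFDN4 was -0.05 at day 14 and HSPA1B -0.0535 between the time points. With block and length trend removed, BAG3 (-0.57) and HSF2 (-0.43) passed between the time points, HSF1 (0.35) and HSPD1 (0.40) passed at day 7, and HSPB1 (-0.52) did not. In that fit PFDN2 was 0.43 at day 7, which was not called, and -0.19 between the time points. PFDN4 was then -0.13 at day 14 and HSPA1B -0.11 between the time points.

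With 3 samples per group, a small change that was not called is not shown to be absent. The counts of HSPA1A and HSPA1B depend on how reads that fit both were assigned.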
